A study of Mus musculus with 10 samples.

Results

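The genes examined here are 10 classical markers of dividing cells, namely Mcm2, Mcm5, Pcna, Mki67, Top2a, Ccna2, Ccnb1, Ccnb2, Cdk1 and Birc5, read in whole aortae of young and old mice. They were taken by gene symbol from a count table of 55453 symbols, of which 28011 had at least 1 count. All 10 were present and 9 of them were among the 14614 genes with enough counts to be tested; Ccnb1 was not. Both groups were male C57BL/6 mice for which no genetic alteration or drug is named, 14.5 weeks old in the young group and 92.5 weeks old in the old group, with 5 mice and 5 libraries in each. The aortae were freed of the fat that surrounds the vessel, and stranded mRNA libraries were sequenced from the whole wall, so that smooth muscle, endothelium, adventitial fibroblasts and resident immune cells were read together. In such bulk samples a change in the number of cells of a type and a change in RNA per cell cannot be told apart.

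A cell that prepares to divide first loads the ring-shaped MCM helicase onto its DNA, then copies the genome with the help of the sliding clamp PCNA, and then enters mitosis under cyclins A and B bound to CDK1. Most of these genes are switched off in resting cells by the DREAM complex, which binds E2F sites and the cell cycle genes homology region (CHR) in their promoters, and are switched on again by activating E2F factors, B-MYB and FOXM1. Smooth muscle cells and endothelium of a healthy adult artery rarely divide, so these transcripts are ordinarily scarce there.

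The deposited libraries held between 19640401 and 22886153 assigned reads, with medians of 21803275 in young and 21810951 in old aortae (exact two-sided permutation test of the totals, p = 0.754). Over all genes, edgeR's quasi-likelihood test called 947 genes higher and 729 lower in old aortae at an adjusted p (Benjamini-Hochberg) below 0.05, and 3902 had an unadjusted p below 0.05. Levels below are normalized counts, meaning read counts divided by a size factor of each library, and fold changes are log2 values of old over young.

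Promoter sequences are shown for 4 of the genes, because 2 of them were called and the other 2 rose and fell together from mouse to mouse. The 200 bases just before the RefSeq start (GRCm38.p6) are printed 5′ to 3′ on the strand of the gene, with capitals on matches to a CHR element (TTTGAA), to the CCAAT box or to an E2F word on either strand, so that a match on the other strand appears as its reverse complement. The first E2F word searched was TTCCCGC. Another was TTGGCGC, which differs from it in its middle letters only. The remaining forms searched were TTCGCGC and, as the last of the 4 words, TTGCCGC.
Mcm2 (chr6:88898781-88898980, minus strand): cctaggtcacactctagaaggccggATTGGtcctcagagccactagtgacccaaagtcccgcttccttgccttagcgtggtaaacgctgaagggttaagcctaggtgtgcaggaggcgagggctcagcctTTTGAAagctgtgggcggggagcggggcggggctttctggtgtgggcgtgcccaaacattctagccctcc
Mcm5 (chr8:75109309-75109508, plus strand): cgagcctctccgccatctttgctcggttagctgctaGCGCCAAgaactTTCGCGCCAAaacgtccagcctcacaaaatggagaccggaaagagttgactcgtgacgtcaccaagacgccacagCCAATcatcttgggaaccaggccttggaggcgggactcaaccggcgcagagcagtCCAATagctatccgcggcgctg
Mki67 (chr7:135716380-135716579, minus strand): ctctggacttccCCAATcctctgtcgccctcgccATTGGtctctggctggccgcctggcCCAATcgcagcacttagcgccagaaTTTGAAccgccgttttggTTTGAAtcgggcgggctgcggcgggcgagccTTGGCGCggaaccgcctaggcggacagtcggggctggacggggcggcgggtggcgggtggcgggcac
Top2a (chr11:99024190-99024389, minus strand): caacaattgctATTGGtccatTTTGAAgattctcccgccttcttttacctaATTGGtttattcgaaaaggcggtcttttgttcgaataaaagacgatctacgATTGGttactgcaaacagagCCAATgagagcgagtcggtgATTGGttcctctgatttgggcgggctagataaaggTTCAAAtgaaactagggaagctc

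The stretches differed in which words they held. The Mcm5 stretch held 3 E2F matches between positions -164 and -143 relative to the start, 2 of which overlapped, together with CCAAT matches beginning at -77 and -22. Mcm2 had 1 CHR match, beginning at -70, and 1 CCAAT match. Mki67 had 2 CHR matches, 3 CCAAT matches and 1 E2F match, and the Top2a stretch had 2 CHR matches and 5 CCAAT matches. Over windows of 300 bases, from 250 before to 50 after the start, the RefSeq table held 9 of the 10 genes and not Ccna2. A CHR element was found in 5 of these 9 windows (17.9% of 32851 mouse promoter windows), a CCAAT box in 8 (37.4%) and an E2F word in 4 (9.57%). The E2F match of Ccnb1 overlapped a CCAAT match, and Birc5 had no match to any of these words. These are matches of letters and not measured binding sites.

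**Figure D1:**
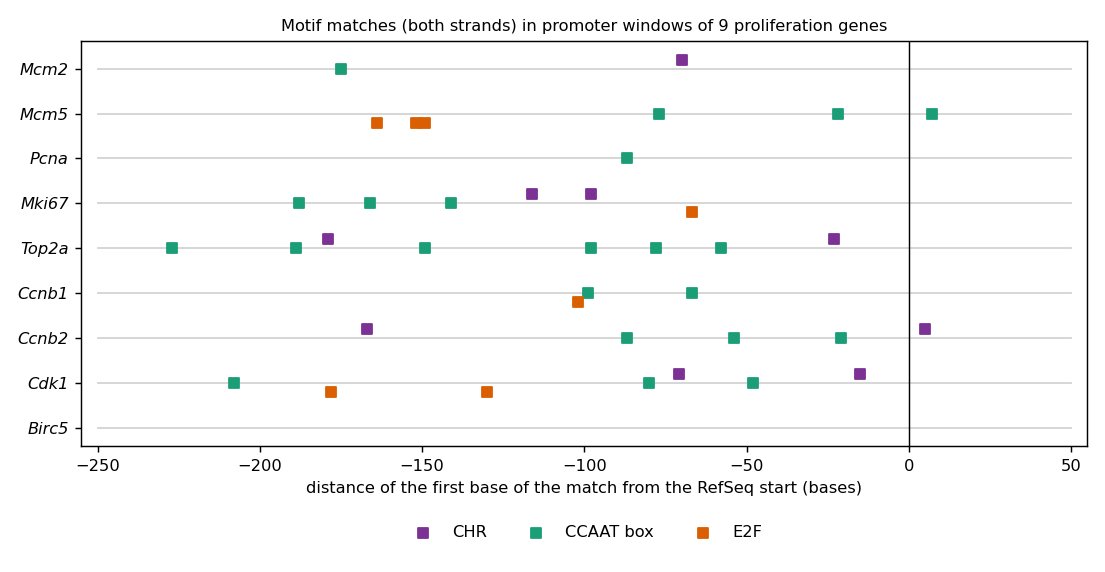
Matches to a CHR element, a CCAAT box or an E2F word on either strand in the promoter windows of 9 proliferation genes (one line a gene, 250 bases before to 50 after the RefSeq start), placed by distance from the start in bases. CCAAT matches lie in 8 of the 9 windows, CHR matches in 5 and E2F matches in 4, and the Birc5 line carries none.

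The 2 members that differed with age were both subunits of the replicative helicase. Mcm2 and Mcm5 were higher in old aortae, and their old and young values did not overlap. They were 2 of 9 tested members called higher, where 6.48% of all tested genes were called higher, and none was called lower (4.99% of all genes). The same 2 were the members whose old values all lay above all young values, which held for 5.37% of all genes tested. A fold change above 0 was found for 8 of the 9, against 50.8% of all genes, and the median of the 9 was 0.32 against 0.0034 for all genes. The members share libraries and regulation, so these counts are descriptions and not independent observations.

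Mcm5, a helicase subunit encoded on chromosome 8 (chr8:75109569-75128439, plus strand, GRCm38), read 91.0, 82.5, 106, 108 and 96.3 normalized counts in young mice 1 to 5, and 126, 125, 150, 140 and 128 in old mice 1 to 5. The lowest old value stood above the highest young aorta. The mean went from 96.7 ± 10.6 to 134 ± 10.8 (SD, n = 5 mice each). The log2 fold change was 0.48, with a standard error of 0.12 and a 95% interval of 0.22 to 0.73 (edgeR adjusted p = 0.0187). Leaving out young mouse 2, the lowest of the group, gave a log2 fold change of 0.42 and an edgeR adjusted p of 0.0519, which misses the threshold.

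Mcm2, the helicase subunit whose protein is widely stained to mark cells licensed to replicate (chr6:88883474-88898780, minus strand), read 184, 158, 187, 149 and 144 in young mice 1 to 5. It read 197, 191, 234, 205 and 218 in the old mice. Again no old value fell within the young range, although the gap between the groups was small. The mean rose from 165 ± 20 to 209 ± 17.3. The log2 fold change was 0.35, with a standard error of 0.11 and an interval of 0.12 to 0.58 (edgeR adjusted p = 0.047). This call lay close to the threshold. With the replicate number as a block, the edgeR adjusted p was 0.0848. Leaving out any 1 of young mice 2, 4 and 5 or of old mice 1 to 5 also took it past 0.05, to adjusted p-values between 0.0512 and 0.117, with log2 fold changes of 0.31 to 0.38.

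The other 4 subunits of the same helicase ring, looked up after the values of Mcm2 and Mcm5 had been seen, were not called. Their log2 fold changes ran from 0.05 for Mcm4 to 0.16 for Mcm6, with edgeR adjusted p-values from 0.411 to 0.752. Mcm6 was the most abundant of the ring in counts, at 1601 ± 230.1 in young and 1783 ± 269.6 in old aortae. Whether Mcm2 and Mcm5 moved differently from their partners was not tested.

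Pcna, the sliding clamp that also serves in DNA repair (chr2:132249162-132253314, minus strand), was by far the most abundant of the 10 genes. Its young values were 812, 887, 879, 965 and 1044, and its old values 918, 914, 889, 790 and 823. The groups overlapped, with young mouse 5 highest and old mouse 4 lowest. The mean was 917 ± 89.2 in young and 867 ± 57.6 in old mice. This gave a log2 fold change of -0.07 (standard error 0.07, interval -0.23 to 0.09, edgeR adjusted p = 0.58). Its interval, the narrowest among the 9 tested members, corresponds to a fold between 0.851 and 1.06. The gene shares 19.1% of its 50-base windows with a pseudogene, Pcna-ps2, which itself held 5 counts in all young and 8 in all old libraries. The counting of reads that fit both was not examined.

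**Figure D2:**
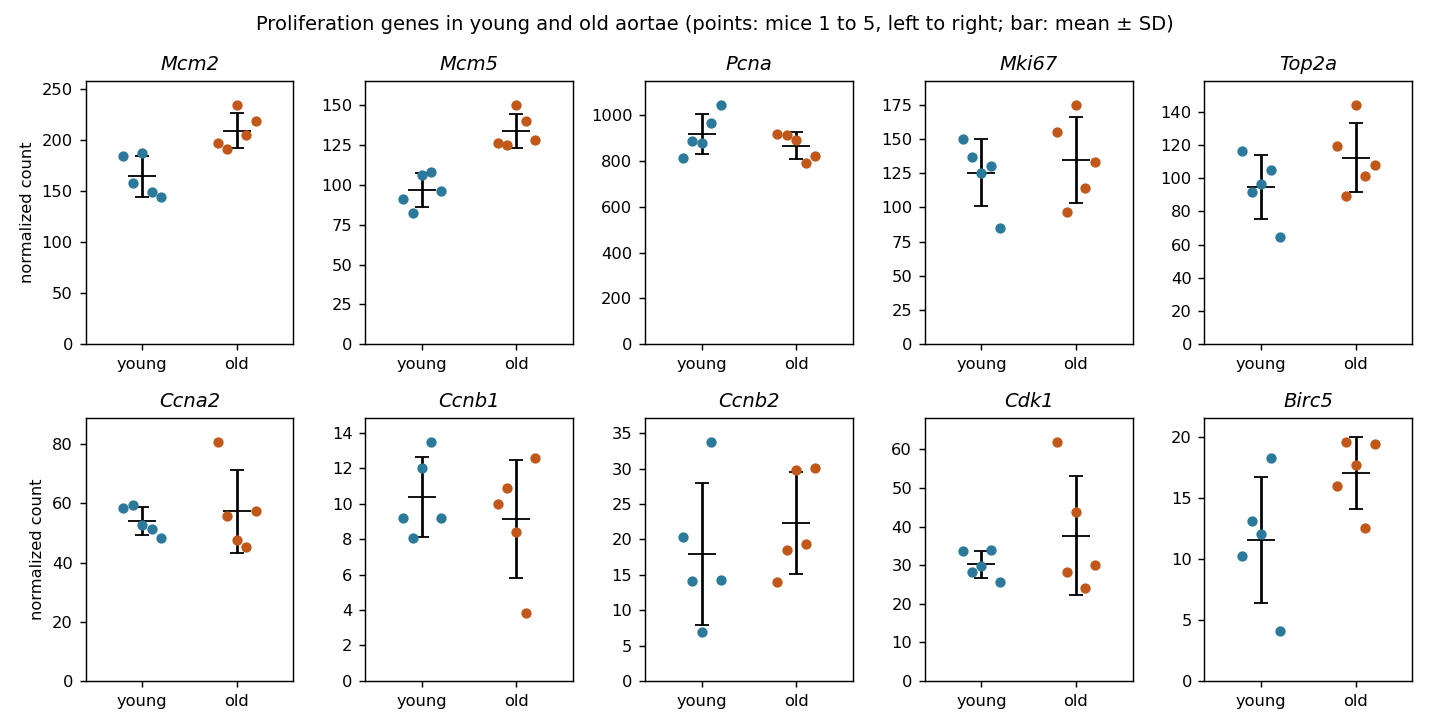
Normalized counts of the 10 proliferation genes in each mouse (vertical axes start at 0 and differ between panels; points are mice 1 to 5 of each group from left to right, and the bar is the mean ± SD of 5 mice). The old points lie wholly above the young points for Mcm2 and Mcm5, and the groups overlap for the other 8 genes.

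None of the genes of late S phase and mitosis was called. Mki67, which encodes the Ki-67 antigen that coats mitotic chromosomes (chr7:135689784-135716361, minus strand), read 150, 137, 125, 130 and 85.0 in young mice 1 to 5 and 155, 97.0, 175, 114 and 133 in old mice 1 to 5. The lowest value was that of a young mouse and the highest that of an old mouse, and the groups overlapped. The mean was 125 ± 24.5 in young and 135 ± 31.3 in old mice. The log2 fold change was 0.11 (standard error 0.18, interval -0.28 to 0.50, edgeR adjusted p = 0.745). The interval, written as a fold, runs from 0.826 to 1.42, so a change within these bounds, in either direction, was not excluded.

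Top2a, the topoisomerase that untangles replicated chromosomes (chr11:98992943-99024189, minus strand), read 116, 91.6, 96.7, 105 and 64.5 in young mice and 119, 89.4, 144, 101 and 108 in old mice. Young mouse 5 was again the lowest and old mouse 3 the highest. Its means were 94.7 ± 19.2 and 112 ± 20.5, with a log2 fold change of 0.25 (interval -0.12 to 0.62, edgeR adjusted p = 0.38).

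Ccna2 encodes cyclin A2, which drives S phase and entry into mitosis (chr3:36564865-36572150, minus strand). It read 58.3, 59.4, 52.8, 51.2 and 48.2 in young mice, and 80.9, 55.6, 47.5, 45.3 and 57.4 in old mice. A single old mouse, number 1, stood well above the rest, and the other 4 old values fell around the young ones. The log2 fold change was 0.09 (interval -0.30 to 0.48, edgeR adjusted p = 0.791), and without old mouse 1 it was -0.063. Of the exonic bases of Ccna2, 12.5% overlap Exosc9 on the opposite strand, and the strand setting of the counting is not given in the sources used here.

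Cdk1, the kinase that starts mitosis (chr10:69335146-69352938, minus strand), had the same old mouse at the top. Young aortae read 33.7, 28.2, 29.9, 33.8 and 25.6, and old aortae 62.0, 28.3, 43.8, 24.1 and 30.1. The log2 fold change was 0.32 with an interval of -0.24 to 0.89 (edgeR adjusted p = 0.472). Over the omissions of single mice the estimate ranged from 0.071 to 0.45.

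Ccnb2, one of the mitotic B cyclins (chr9:70407692-70421547, minus strand), read 20.4, 14.1, 6.98, 33.8 and 14.3 in young and 14.0, 18.5, 29.8, 19.3 and 30.1 in old aortae. The young values alone spanned the whole old range. Its log2 fold change was 0.32 (interval -0.47 to 1.12, edgeR adjusted p = 0.626). Birc5, which encodes survivin, a subunit of the chromosomal passenger complex (chr11:117849251-117855743, plus strand), read 10.2, 13.1, 12.0, 18.3 and 4.10 in young and 16, 19.6, 17.7, 12.5 and 19.4 in old aortae. Its old values were mostly above the young ones but overlapped them. Its log2 fold change of 0.56 was the highest among the 9 tested members and also among the least certain, with an interval of -0.14 to 1.25 (edgeR adjusted p = 0.296).

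Ccnb1, the other mitotic B cyclin (chr13:100778650-100786570, minus strand), had 52 counts over the 5 young and 46 over the 5 old libraries and was too scarce for the fit. Its young values were 9.20, 8.05, 12.0, 13.5 and 9.22, and its old values 9.99, 10.9, 8.39, 3.86 and 12.6. Means of 10.4 ± 2.27 and 9.15 ± 3.34 gave a ratio of 0.881, and the difference was smaller than the spread between mice (exact two-sided permutation test p = 0.532, where the smallest p possible is 0.0079). A share of 23.4% of its windows is also found in annotated transcripts of other genes. Among them is the pseudogene Ccnb1-ps, which itself held 0 counts in all libraries. How reads that fit several places were counted was not examined, so this cannot show whether Ccnb1 lost reads.

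**Figure D3:**
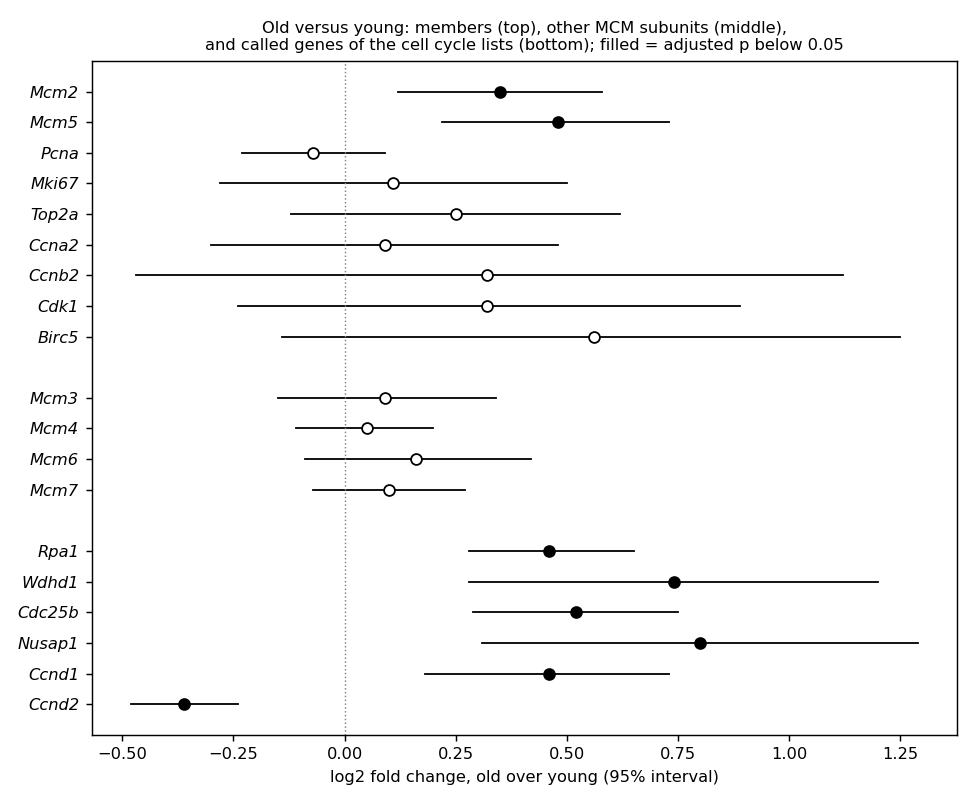
Log2 fold changes, old over young, with 95% intervals from edgeR for the 9 tested proliferation genes (top), the other 4 subunits of the MCM ring (middle) and the called genes of the wider cell cycle lists (bottom), with filled points at an adjusted p below 0.05. Among the 9 members the intervals of Mcm2 and Mcm5 alone lie above 0, and the interval is narrowest for Pcna and widest for Ccnb2.

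Levels per exonic length were high for Pcna and lay in the lower part of the aortic transcriptome for the other 9 genes. On the RPKM-like scale of counts per kilobase of exon, divided by library depth, Pcna stood at 17.4 ± 1.40 in young and 16.9 ± 1.01 in old aortae, at the 83.0 percentile of the tested genes. Mcm5 (1.11 in young, 1.57 in old) and Mcm2 (1.08 and 1.40) followed at the 24.6 and 23.5 percentiles. Ccna2, Ccnb2, Mki67 and Top2a came next, between 0.482 and 0.604 in young aortae. Differences between these neighbours were not tested. Cdk1 (0.281), Birc5 (0.155) and Ccnb1 (0.113) were lowest in young aortae, at the 7.71, 4.24 and 1.24 percentiles. The 7 genes of late S phase and mitosis summed to 344 ± 58 (young) and 391 ± 71.0 (old) normalized counts. All 10 members together stood at 69.6 ± 2.46 CPM (the share of all assigned reads) in young and 74.8 ± 5.11 CPM in old aortae.

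The spread between mice exceeded the error of counting for some of these genes and not for others. For Cdk1 the variance between young mice was 0.415 times that expected from counting alone, but 6.35 times in old mice. Ccna2 showed the like, at 0.414 and 3.56 times. Both old values carry old mouse 1, whose high reading was described above. For Mki67 the variance exceeded counting in both groups, by 4.68 and 7.22 times, and for Mcm5 it stood near counting in both, at 1.16 and 0.891 times.

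Mki67 and Top2a rose and fell together across mice. With the group means removed, their log2 levels had a Pearson r of 0.95 over the 10 mice (exact permutation within groups, p = 0.000347, adjusted over 45 pairs of members p = 0.0156). Spearman's rho was 0.94 (exact permutation p = 0.00146, adjusted 0.0656). The correlation was 0.95 among young and 0.97 among old mice taken alone, and 0.86 after leaving out old mouse 2 and young mouse 5, the mice farthest from the median of Mki67. It was the only 1 of the 45 pairs with an adjusted p below 0.05 by Pearson's r, and none passed by Spearman's rho. Mcm2 and Mcm5 had an r of 0.26 (exact permutation p = 0.525) and a rho of 0.21 (exact permutation p = 0.597), and an r of 0.25 without young mice 1 and 3. Their r was 0.01 among young and 0.78 among old mice taken alone, and this difference was not tested. Over the 21 pairs among the late S phase and mitosis genes the median r was 0.33, with 19 of 21 positive. Over the 21 pairs of a replication gene with a mitosis gene it was 0.05. These pairs share libraries and the differences between such medians were not tested.

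**Figure D4:**
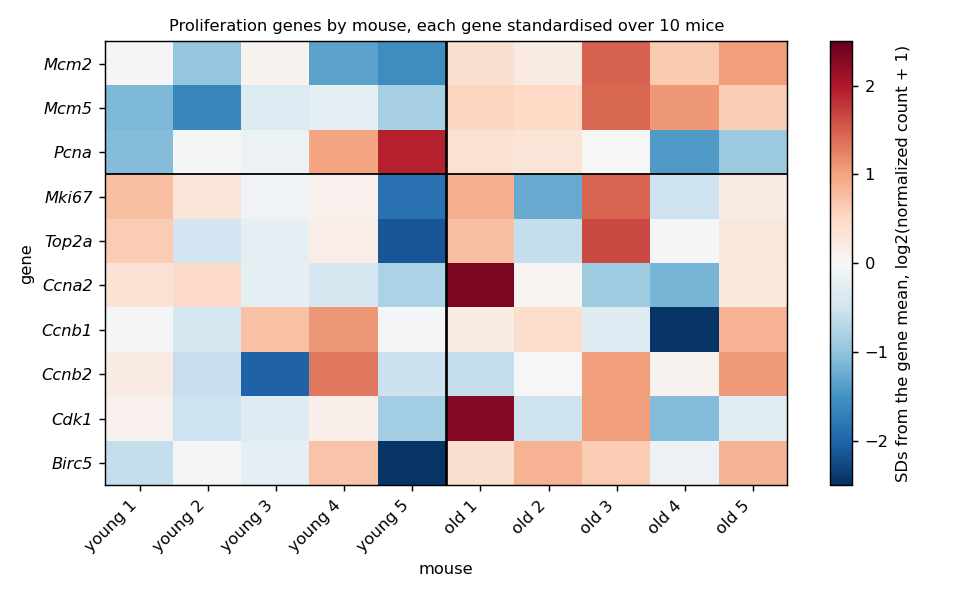
Each of the 10 genes (rows) in each mouse (columns), as SDs from that gene's mean over the 10 mice on the log2(normalized count + 1) scale, with red for high and blue for low. The rows of Mcm2 and Mcm5 are blue or pale in young and pale to red in old mice. Mki67 and Top2a follow single mice, lowest in young mouse 5 and highest in old mouse 3.

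The 5 genes whose levels followed the mean of the mitosis members most closely over the 10 mice, group means removed, were Elmo3 (r = 0.93), Tm2d3 (0.91), Gm15704 (0.88), Shcbp1 (0.88) and Adgrg3 (0.88). None belongs to the mitosis list, and with 10 mice and 14605 genes high values arise readily. The 52 tested genes of that list had a median r of 0.32, against 0.01 for all genes outside the members, and 6 of them were among the 100 highest. The 8 macrophage markers had a similar median r of 0.31. Medians of the other cell type marker lists ran from -0.34 for endothelium to 0.26 for B cells. No marker of these lists was among the 100 highest, and differences between the lists were not tested.

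Wider cell cycle lists, which do not hold the 10 members, were read in the same fit. Of 46 tested genes of replication licensing and the fork, 2 were called higher and none lower, 38 had a fold change above 0, and the median was 0.16. Rpa1, the large subunit of the protein that coats single-stranded DNA, rose from 1157 ± 115 to 1586 ± 178 normalized counts (log2 fold change 0.46, edgeR adjusted p = 0.00444). Wdhd1, a factor that links the helicase to DNA polymerase alpha, rose from 38 ± 7.66 to 63.2 ± 16.5 (0.74, edgeR adjusted p = 0.0397). The call for Wdhd1 was lost without any 1 of young mice 2, 4 and 5 or of old mice 2, 4 and 5, with adjusted p-values of at most 0.106.

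Of 52 tested mitosis genes, 2 were called higher and none lower, 43 had a fold change above 0, and the median was 0.23. Cdc25b, the phosphatase that activates CDK1, rose from 411 ± 72.2 to 585 ± 25.6 (0.52, edgeR adjusted p = 0.00771). Nusap1, a spindle protein, rose from 21.0 ± 7.01 to 36.6 ± 1.99 (0.80, edgeR adjusted p = 0.0367), a call kept in only 1 of the 10 fits that each left out 1 mouse, that without young mouse 3 (adjusted p = 0.00914, and at most 0.0906 in the others). The most abundant genes of the list, Hjurp and Anln, had log2 fold changes of 0.11 (edgeR adjusted p = 0.482) and below 0.01 in size (adjusted p = 0.99). In both lists the called share was therefore below the 6.48% of all genes called higher, while the share above 0 was higher than the 50.8% of all genes.

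The D-type cyclins, which start the cycle in G1, moved in opposite directions. Ccnd2 was the most abundant of them and fell from 7970 ± 325 to 6175 ± 309 (log2 fold change -0.36, edgeR adjusted p = 0.00139). Ccnd1 rose from 1052 ± 147 to 1436 ± 251 (0.46, edgeR adjusted p = 0.0347), a call kept only without young mouse 1 or old mouse 2 among the 10 omissions (adjusted p = 0.0133 and 0.0087, and at most 0.0864 in the others). Ccnd3 was not called (-0.07, edgeR adjusted p = 0.569). These were the 2 called of 9 tested G1 cyclins and kinases, whose median was -0.07.

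None of 9 tested inhibitors and pocket proteins was called, and their median was -0.11. Cdkn1a, which encodes the CDK inhibitor p21, had a log2 fold change of -0.31 (edgeR adjusted p = 0.386), Cdkn1b of -0.16 (0.158), Cdkn1c of 0.23 (0.109), Cdkn2b of -0.62 (0.157), Cdkn2c of -0.11 (0.755) and Cdkn2d of 0.20 (0.217). The retinoblastoma family members Rb1, Rbl1 and Rbl2 had -0.18 (0.221), -0.02 (0.936) and 0.10 (0.235). Cdkn2a, which encodes p16 and p19, was too scarce for the fit, with 11 counts in young and 77 in old libraries, and its normalized count went from 2.21 ± 1.81 to 15.2 ± 4.85 (exact permutation p = 0.00794). None of 16 tested E2F, DREAM and MuvB factors was called either, with a median of 0.04 and the abundant Rbbp4 at 0.02 and Tfdp2 at 0.18 (edgeR adjusted p = 0.872 and 0.121).

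**Figure D5:**
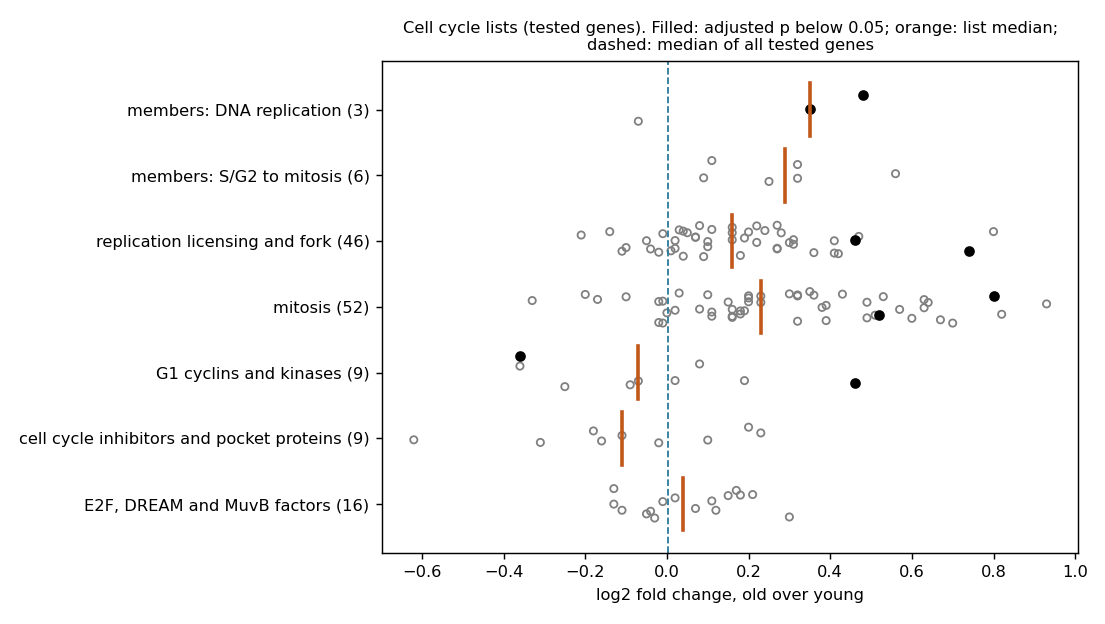
Log2 fold changes of the tested genes of each cell cycle list, with the number tested in brackets (points jittered vertically), filled at an edgeR adjusted p below 0.05, orange for the list median and a dashed line at 0.0034 for the median of all tested genes. The replication and mitosis lists have medians of 0.16 and 0.23, to the right of the dashed line, with 2 filled points each, and the inhibitors have a median of -0.11 with none filled.

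Markers of other cells moved between the groups as well, beside the results for Mcm2 and Mcm5. Of 8 macrophage markers 4 were called higher, and their summed normalized counts ran from 5788 to 7597 in young and from 7844 to 14353 in old aortae, with old mouse 3 highest. Of 7 T and NK cell markers only 2 could be tested, and both were called higher, with sums of 8.20 to 46.0 in young and 41.0 to 183 in old aortae. None of 3 tested B cell markers was called (sums of 12.1 to 90.0 and 27.0 to 321). Old mouse 3 was highest in all 3 immune sums and also in Mcm2, Mcm5, Mki67 and Top2a. It was also highest in the striated muscle sum (1734) and lowest in the endothelial sum (9725). Old mouse 1, next in the sum of the mitosis members (457), had the lowest T and NK cell (41.0) and B cell (27.0) sums of the old mice. Without old mouse 3, Mcm5 had a log2 fold change of 0.43 (edgeR adjusted p = 0.0453) and Mcm2 of 0.31 (adjusted p = 0.108). For Mcm2, leaving out young mouse 4 or 5 gave edgeR adjusted p-values of 0.117 and 0.114. No marker of the 3 immune lists was at 0 in every young library. The part of immune cells in the results for Mcm2 and Mcm5 was not tested.

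Vessel wall markers were present in every group. Of 6 smooth muscle markers, 1 was called higher (Smtn), with sums of 794522 to 941453 in young and 733917 to 896083 in old aortae. Of 6 endothelial markers 1 was called lower (Tek), with sums of 19345 to 33413 and 9725 to 22319, and of 6 fibroblast markers 1 was higher and 2 were lower. Adipocyte markers, none of them called, summed to 2109 to 8043 in young and 1224 to 3178 in old aortae. No erythroid or Schwann cell marker was called, and of 4 tested striated muscle markers 1 was called higher and 1 lower.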

How the data were processed

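Gene counts were deposited by the authors as one table of raw read counts for 10 libraries of 5 young and 5 old mice, with no normalization. The submitters' processing notes name fastp 0.20.0, STAR 2.7.0f, and featureCounts of Subread 1.6.4, with GRCm38. Library totals ran from 19640401 to 22886153 counts, and no 2 libraries of a group agreed within sampling noise (chi-square per degree of freedom of 8.06 to 58.8 over 20 pairs). The counts were tested with edgeR 4.0.16 (robust quasi-likelihood F test, TMM scaling, default expression filter) in R 4.3.3, with Benjamini-Hochberg adjustment over 14614 genes and a threshold of 0.05. The study used DESeq2, which was an alternative here (1.42.0), as was limma-voom (limma 3.58.1), other scalings and filters, a replicate block, a stricter threshold (0.01) and fits without 1 mouse at a time. The scripts were tested on simulated data with 200 changed genes. Size-factor normalized counts gave levels, SDs and exact permutation tests (scipy 1.17.1). Levels per kilobase used exonic lengths of GENCODE M21. Correlations between members used log2(normalized count + 1). Those of other genes with the mean of the mitosis members used log2 CPM with a prior count of 2. Promoters came from RefSeq (GRCm38.p6).

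The members and lists were chosen with earlier results of these data known. Named genes were the members, called genes and the 2 most abundant genes of each list, all inhibitors and pocket proteins, the 5 genes most correlated with the mitosis members, and pseudogenes of members. The 4 other MCM ring subunits were added after their values were seen. Replicates were different mice, killed on one occasion, and intervals of counts cover the spread between them.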

Additional observations from a re-analysis of the deposited data

Results flagged for a closer look

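The highest or lowest sample of each group was compared with the others by Dixon's ratio in 52 groups (26 genes, young and old), where chance flags about 1 in 20, and 2 groups passed the critical value of 0.71. The lowest old value of Ccnd2 was 5627 normalized counts in old mouse 2, with the nearest at 6259.8 (ratio 0.865), and without that mouse the log2 fold change of Ccnd2 was -0.33. The highest young value of Cdkn2c was 349 normalized counts in young mouse 1, with the nearest at 226 (ratio 0.722). No flagged value belonged to the 10 proliferation genes.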

How the results depend on the processing

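Mcm5 was called in 17 of 18 alternatives at a threshold of 0.05 (adjusted p between 0.00501 and 0.0519, log2 fold change 0.42 to 0.52) and Mcm2 in 6 of 18 (0.0276 to 0.117, 0.31 to 0.40). The number of proliferation genes called higher, 2 as reported, was 1 with DESeq2 size factors, with library size alone, without the low-count filter and with the replicate block, 0 at a threshold of 0.01, and 0 to 2 when single mice were left out (0 without young mouse 2), and none was called lower in any of these fits. For the 5 cell cycle lists, 5 genes were called higher as reported, 3 with the replicate block, 2 at a threshold of 0.01 and 2 to 9 without single mice (9 without young mouse 1, 2 without old mouse 5), and 1 was called lower as reported and 1 to 2 without single mice. Over all genes 1676 were called as reported, 658 at a threshold of 0.01 and 1132 to 2367 without single mice. The log2 fold change of Mki67 turned to -0.0027 without young mouse 5 and to -0.002 without old mouse 3, that of Ccna2 to -0.063 without old mouse 1 and that of Ccnb1, from below 0, to 0.015 without old mouse 4, none of them called. Over single omissions these 3 ranged up to 0.20 for Mki67 and 0.17 for Ccna2, and down to -0.33 for Ccnb1. The ratio of mean levels of Ccnb1 ran from 0.797 to 1.01 without single mice. The cause of these shifts was not tested. Same-numbered young and old mice were different animals, so the pairing is by number alone. The correlations of their deviations ran from -0.30 to 0.13, with 1 of 5 over 0.1 and 2 of 5 libraries best matched to their own number. So few correlations cannot show whether same-numbered libraries shared any handling. With the replicate block, 1261 genes were called in all, and the adjusted p was 0.0848 for Mcm2 and 0.0407 for Mcm5. Ccnb1, Birc5, Ccnb2, Cdk1 and Ccna2 had the fewest counts of the members, and Ccnb1 fell below the default expression filter. Without the low-count filter the log2 fold change of Ccnb1 was -0.18 (edgeR adjusted p = 0.836). For Cdk1 and Ccna2 in old and Ccnb2 in young aortae the variance between mice was 6.35, 3.56 and 5.74 times that of counting. In the other age group it was 0.415, 0.414 and 2.39 times. The old values of Cdk1 and Ccna2 carry the high reading of old mouse 1. What set the precision of these genes was not tested.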
